A study of Mus musculus with 27 samples.

Results

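Mouse thyroid gland organoids (mTGOs) that had received 7 Gy of photons were compared with mTGOs that had received 2 Gy, both collected at day 7 of culture, to describe the genes that depend on dose among irradiated organoids. The libraries were chosen by the day and the dose in their names, which gave 3 libraries at 7 Gy and 3 at 2 Gy, 6 of the 27 libraries in the series. An organoid here is a hollow or solid 3-dimensional structure grown in a gel from dissociated tissue cells.

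The series followed organoids over culture time and after irradiation, with RNA collected at days 5, 7 and 11. Thyroid tissue came from C57BL/6 mice of 8 to 12 weeks of age, for which the labels name no genetic change, and all groups were grown in Matrigel with DMEM/F12, EGF, FGF2, the ROCK inhibitor Y27632 and B27. Irradiation was given at day 5, so that the libraries compared here show the state 2 days later. By their labels the 2 Gy and 7 Gy groups differ in the dose alone. The 0 Gy and 4 Gy groups of the same day and the 2 Gy and 7 Gy groups of day 11, each of 3 libraries, are given beside them where they bear on a result. Each group holds 1 library from each of 3 cultures, named mTG11, mTG12 and mTG14, and values of single libraries are given in that order throughout. The series text speaks of 4 mice and the labels number the mice 1 to 3. The culture names could not be matched to those numbers. The main fits block by culture, so their p-values measure the spread of dose differences among these cultures. The level of each culture is taken out of that spread.

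Ionising radiation breaks DNA, and cells answer through the transcription factor p53, which raises genes that hold the cell cycle, repair DNA or start cell death. Cells that stop dividing lose the transcripts of the mitosis machinery, which are made shortly before division. DNA or RNA that reaches the cytoplasm of damaged cells can also engage nucleic acid sensors, which leads to interferon signalling through the kinases Jak1 and Tyk2 and factors such as Stat2 and Irf9 to a large set of antiviral genes.

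The 6 libraries held between 2528866 and 4591357 estimated counts, the smallest being 2 Gy mTG11, and levels are given as CPM, the counts scaled to a common library total. A detection floor of 3 counts corresponded to 0.653 to 1.19 CPM, and it covers counting error only. Ribosomal and mitochondrial RNA took 12.6% to 15.8% of the counts at 2 Gy and 10.7% to 15.9% at 7 Gy. The label was checked against the defining genes of the thyroid. Tg, which encodes thyroglobulin, was at 0.395, 2.4 and 0.365 CPM at 2 Gy and at 0, 3.08 and 0.798 CPM at 7 Gy. Pax8, Tshr and Slc5a5 were at or below about 1 CPM in each of the 6 libraries. Foxe1, a thyroid transcription factor gene that stratified epithelia also use, was at 22.5, 26.1 and 28.8 CPM at 2 Gy and at 20.3, 26.7 and 30.1 CPM at 7 Gy. Epcam, an epithelial adhesion gene, was at 571, 412 and 567 CPM at 2 Gy, and the basal keratin gene Krt5 was at 4377, 5668 and 4369 CPM. Duox1, an oxidase that thyroid hormone synthesis and other epithelia use, was at 15.8, 31.4 and 19 CPM at 2 Gy, and Nkx2-1, a thyroid and lung factor gene, at 10.7, 6.32 and 8.03 CPM. Thus Tg, Pax8, Tshr and Slc5a5 were low, while Foxe1, Duox1 and Nkx2-1 were present.

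Between 7 Gy and 2 Gy, 609 of 19346 genes had an adjusted p under 0.05 (edgeR quasi-likelihood F-test blocked by culture, Benjamini-Hochberg), which is 3.15% of those tested. Among them 313 were higher at 7 Gy (1.62%) and 296 were lower (1.53%). The median log2 fold change of all genes tested was 0.01, 103 of the called genes were more than 2-fold higher and 74 more than 2-fold lower. Without the culture block 160 genes were called, 53 higher and 107 lower. Counts of called members in the lists below stand against the 1.62% and 1.53% of all genes. Where groups are said not to overlap, this describes the values of the single libraries. The share of all genes without overlap was not computed, so a lack of overlap adds no support to a call. In these bulk libraries, fewer cells of a type and less RNA per cell cannot be told apart.

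**Figure D1:**
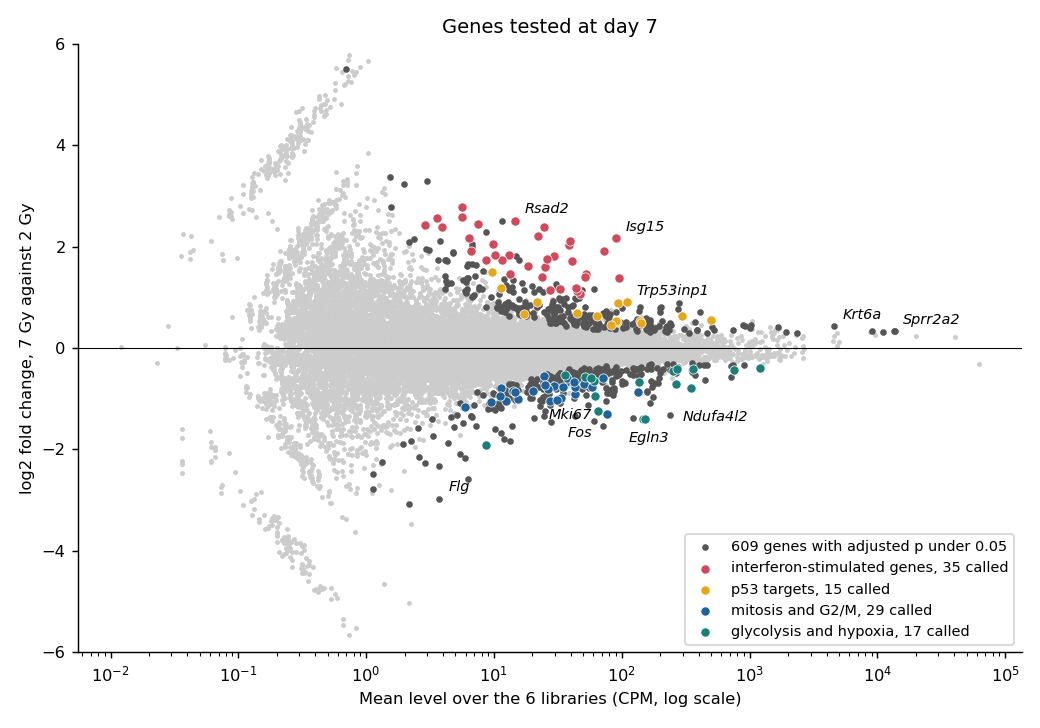
Log2 fold change of 7 Gy against 2 Gy at day 7 (y axis) against the mean level over the 6 libraries in CPM on a log scale (x axis), each point 1 gene tested. The 609 called genes are dark or coloured by list, and the interferon-stimulated and p53 target genes called lie above 0 while the mitosis and the glycolysis and hypoxia genes called lie below it.

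The 12 largest rises, among called genes of at least 10 CPM on average with the same direction in all 3 cultures, were Rsad2, Apol9b, Ifit3, Ifit3b, Isg15, Bst2, Oasl2, Ifit1, Zbp1, Oas1a, Usp18 and Sp100, with log2 fold changes from 1.81 to 2.52. All of them are known from other systems as genes that interferon raises. The 12 largest falls by the same rule included Alox12b, Fosb, Klk9, Fos, Cyp2s1, Lor, U90926, Ero1a, Egln3, Prelid2 and 2610528A11Rik, from -1.84 to -1.38. These are more mixed. They include genes of cornifying epithelium (Alox12b, a lipoxygenase of the skin barrier, Lor, which encodes loricrin, and the kallikrein Klk9), the immediate early genes Fos and Fosb, and the hypoxia-induced genes Egln3 and Ero1a. Among genes that stand in none of the groups described below, Prelid2, a mitochondrial lipid transfer gene, was at 27.5, 27.7 and 34 CPM at 2 Gy and 10.3, 14.4 and 8.65 CPM at 7 Gy. Cyp2s1, a cytochrome P450 gene, was at 25.7, 23.2 and 13.5 and 8.52, 7.07 and 5.32 CPM, and 2610528A11Rik at 181, 114 and 235 and 54.1, 52.9 and 91.3 CPM. These 3 genes did not overlap between doses. U90926, which overlapped, was at 42.3, 121 and 94.9 CPM at 2 Gy and 14.3, 72.2 and 18.4 CPM at 7 Gy, highest in mTG12 at both doses. Alox12b was at 25.3, 17.9 and 19.4 and 3.26, 6.42 and 7.72 CPM, without overlap. The call for Lor passed in the fewest refits of the 24, with an adjusted p of 0.0438 (edgeR), passing in 2 of 6 refits that each dropped a single library.

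The interferon-stimulated genes were higher at 7 Gy. Of 44 members 43 were tested, and 35 of those were called higher and 0 lower, against 1.62% and 1.53% of all genes. The median log2 fold change was 1.73, against 0.01 over all genes. All 43 had a positive value, between 0.16 and 2.78. The median was 0.87 from 0 to 2 Gy, 0.66 from 2 to 4 Gy and 1.00 from 4 to 7 Gy, fits that share their libraries. The group includes effectors that act on viral RNA and proteins, and the factors that relay the signal.

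Rsad2, which encodes viperin, an enzyme that makes a chain-terminating nucleotide, was at 5.93, 2.83 and 3.29 CPM at 2 Gy, 16, 9.38 and 6.57 at 4 Gy and 52.2, 8.48 and 15.2 at 7 Gy. Each 7 Gy library lay above all the 2 Gy libraries, and mTG11 was far above the other cultures. The log2 fold change was 2.52 ± 0.31 (SE, adjusted p = 0.000382, edgeR). Isg15, a ubiquitin-like protein that is attached to other proteins, went from 47.2, 8.6 and 40.5 CPM at 2 Gy to 293, 46.2 and 109.9 CPM at 7 Gy. It rose within each culture, while the groups overlapped because mTG12 at 7 Gy was below mTG11 at 2 Gy. Its log2 fold change was 2.17 ± 0.28 (adjusted p = 0.000457, edgeR). Ifit3, whose protein belongs to a family that binds viral RNA, was at 13.8, 3.27 and 6.21 CPM at 2 Gy and at 79.3, 15 and 29.4 CPM at 7 Gy, without overlap, and differed by 2.39 ± 0.27 on the log2 scale (adjusted p = 0.000225, edgeR). Its close copy Ifit3b gave 2.21 ± 0.30, and fractional counts show that reads were shared among such copies, so the split between them is uncertain.

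The other effectors were higher within each culture as well. Bst2, which encodes tetherin, was at 24.1, 7.62 and 12.1 CPM at 2 Gy and 121, 24.8 and 47.2 CPM at 7 Gy, without overlap. Usp18, the enzyme that removes Isg15 from its targets and damps the signal, was at 17, 8.93 and 11.7 CPM at 2 Gy and 82.2, 18.5 and 39.9 CPM at 7 Gy, also without overlap. Among the genes of 2′-5′ oligoadenylate synthesis, Oas1a differed by 1.83 ± 0.23 and Oasl2 by 2.04 ± 0.32, and for both the 7 Gy value of mTG12 lay below the 2 Gy value of mTG11. Zbp1, a sensor of Z-form nucleic acids, was at 6.33, 0.871 and 6.21 CPM at 2 Gy and at 29.3, 3.85 and 14.1 CPM at 7 Gy, with overlap. Apol9b, an apolipoprotein L gene outside the list, was at 3.95, 2.4 and 3.47 CPM at 2 Gy and at 33, 7.07 and 20.0 CPM at 7 Gy. Ifit1bl1 had the smallest p of the list, with 42.5, 15 and 28.5 CPM at 2 Gy, 111, 46.8 and 70.8 CPM at 7 Gy, without overlap (1.46 ± 0.15 on the log2 scale, adjusted p = 0.000154 by edgeR).

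The genes that relay interferon signals were among the members called. Irf9, the DNA-binding part of the complex that type I interferon activates, went from 36, 14.6 and 32.1 to 76.4, 40.6 and 63.2 CPM, with no overlap between the groups. Irf7, which drives interferon genes, went from 44.7, 12.2 and 27.8 to 101, 22.6 and 59.1 CPM, and the RNA sensor gene Ifih1 from 23.3, 6.97 and 22.6 to 51.6, 18.8 and 41.5 CPM. Both rose within each culture and overlapped between groups.

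The ligands themselves were at the limit of detection. Of 21 type I, II and III interferon genes in the file, looked up after the result was seen, 18 had no counts over the 6 libraries and the highest, Ifnl3, had 3 counts, all of them in 7 Gy mTG11. Outside these 6 libraries Ifnl3 was at 0.679 CPM in 4 Gy mTG14 and at 0.13 CPM in 0 Gy mTG11. Levels under 0.653 to 1.19 CPM were not detectable at this depth. Of 9 receptor and kinase genes (Ifnar1, Ifnar2, Ifngr1, Ifngr2, Ifnlr1, Il10rb, Jak1, Jak2 and Tyk2) edgeR called 0, with 1 at an unadjusted p under 0.05, and DESeq2 called 0. Over all genes, 3043 of 19346 had an unadjusted p under 0.05 (edgeR). Tyk2 was at 11.9, 9.37 and 9.13 CPM at 2 Gy and 15.3, 20.3 and 12.2 CPM at 7 Gy (log2 fold change 0.70 ± 0.20, adjusted p = 0.0814, edgeR), and Ifnar1 was at 38.1, 31.3 and 27.8 and 32, 39 and 30.2 CPM. Of 5 genes of nucleic acid sensing and its relay (Cgas, Sting1, Tbk1, Irf3 and Mavs) edgeR likewise called 0, and DESeq2 called 0. Of these 5, 1 had an unadjusted p under 0.05 (edgeR), against the same share of all genes. These 5 do not stand for all sensing genes. The sensor genes Ifih1 and Zbp1 of the interferon list were called higher (log2 fold changes 1.15 and 1.83). Ddx58 (1.16) and Dhx58 (2.06) of that list were called higher too. Sting1 was at 20.6, 10.9 and 20.8 CPM at 2 Gy and 16.8, 11.3 and 15.4 CPM at 7 Gy.

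The cultures also differed in the height of the interferon genes. The summed level of the list was 1252, 894 and 959 CPM at 0 Gy, 1659.5, 1023 and 1438 at 2 Gy, 2312, 1524 and 1321 at 4 Gy and 3718, 1531 and 2252 at 7 Gy. In mTG12 the sum hardly differed between 4 and 7 Gy, and in mTG14 it was lower at 4 Gy than at 2 Gy. Within cultures the median log2 ratio of 7 Gy to 2 Gy was 1.76 in mTG11, 1.31 in mTG12 and 1.36 in mTG14. Without the culture block 1 member was called (Trim30a, adjusted p = 0.0311, edgeR), without mTG11 16 members, without mTG12 35 and without mTG14 29.

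Promoter stretches are shown for 3 of the genes with large rises, so that the letters to which the complex of Irf9 is known to bind can be seen. Windows from 250 bases before to 50 bases after gene starts in RefSeq, build GRCm38.p6, were searched on both strands for the core of the interferon-stimulated response element, GAAA, any 2 bases, GAAA. The element was found in 19 of 32 list members with a window (59.4%) and in 3.99% of 27025 genes. In the stretches below, written 5′ to 3′ on the strand of the gene, capitals mark the element, which reads TTTC on its other strand, and in Isg15 they cover 3 overlapping matches. The stretch for Ifit3 is chr19:34583379-34583498 on the plus strand, that for Rsad2 is chr12:26456453-26456572 on the minus strand and that for Isg15 is chr4:156200847-156200966 on the minus strand.
Ifit3: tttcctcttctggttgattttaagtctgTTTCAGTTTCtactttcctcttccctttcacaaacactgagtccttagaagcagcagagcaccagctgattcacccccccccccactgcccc
Rsad2: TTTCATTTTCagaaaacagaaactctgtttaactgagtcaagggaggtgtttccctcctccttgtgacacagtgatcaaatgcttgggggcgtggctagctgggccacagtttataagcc
Isg15: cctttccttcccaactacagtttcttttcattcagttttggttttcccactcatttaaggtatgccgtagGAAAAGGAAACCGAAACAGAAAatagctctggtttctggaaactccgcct

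Genes of antigen presentation by MHC class I, many of which interferon also raises, had 6 of 21 members called higher and 0 lower, with a median of 0.46. Tap1, which carries peptides into the endoplasmic reticulum, was at 42.7, 22.7 and 29.9 CPM at 2 Gy and 81.7, 49.1 and 52.7 CPM at 7 Gy, without overlap (log2 fold change 0.98 ± 0.12, adjusted p = 0.000366, edgeR). B2m, the light chain of the complex, was at 179, 106 and 156 CPM at 2 Gy and 360.4, 164 and 235 CPM at 7 Gy and rose within each culture. The immunoproteasome gene Psmb8 differed by 1.14 ± 0.22, and the heavy chain genes H2-K1 and H2-D1 by 0.42 ± 0.09 and 0.44 ± 0.10. Dropping a single library left 2 to 6 calls, and 0 were made without the block.

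**Figure D2:**
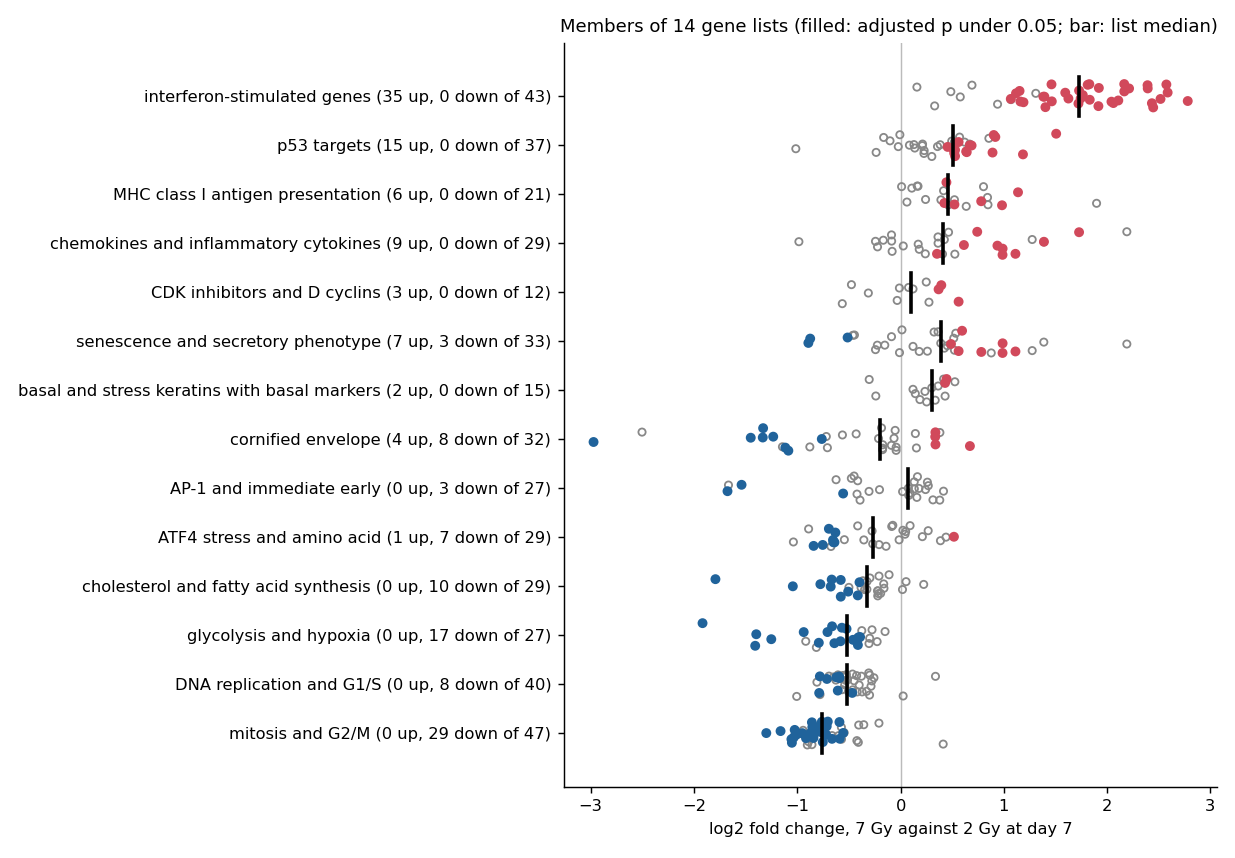
Log2 fold change of 7 Gy against 2 Gy at day 7 (x axis) for the tested members of 14 gene lists (y axis, with counts of members called higher and lower), each point 1 gene, filled where the adjusted p was under 0.05, with a bar at the list median. The medians run from 1.73 for interferon-stimulated genes to -0.76 for mitosis and G2/M genes.

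Some of the p53 targets were higher at 7 Gy than at 2 Gy. Of 37 members tested 15 were called higher, 0 lower and 22 neither, and 6 had negative values, with a median log2 fold change of 0.50. The median was 0.63 from 0 to 2 Gy, 0.32 from 2 to 4 Gy and 0.12 from 4 to 7 Gy, values that share libraries. Trp53inp1, which acts with p53 in cell death and autophagy, was at 42.1, 37.4 and 35.3 CPM at 0 Gy, 79.1, 75.4 and 78.7 at 2 Gy, 112, 135 and 105 at 4 Gy and 127, 163 and 140.2 at 7 Gy. The 2 Gy and 7 Gy libraries did not overlap and the cultures lay close together (log2 fold change 0.90 ± 0.10, adjusted p = 0.000192, edgeR). The gene lies on chromosome 4 from 11156412 to 11175230 on the plus strand in GRCm39. Mdm2, the ubiquitin ligase that degrades p53, was at 71.6, 63.4 and 64.2 CPM at 2 Gy and 123, 132 and 108 CPM at 7 Gy (log2 fold change 0.89 ± 0.12, adjusted p = 0.000729, edgeR).

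Cdkn1a, which encodes the cell cycle inhibitor p21, was at 370.1, 430.2 and 429 CPM at 2 Gy and 598, 681 and 513 CPM at 7 Gy, again without overlap (log2 fold change 0.56 ± 0.09, adjusted p = 0.00294, edgeR). Cgref1, a growth regulator gene, showed the widest difference of the list, from 5.93, 3.92 and 5.48 CPM at 2 Gy to 17.5, 14 and 10.9 CPM at 7 Gy. Of the genes of cell death, Bax differed by 0.64 ± 0.13, Pmaip1 by 0.53 ± 0.11 and Aen, an exonuclease that cuts DNA in dying cells, by 0.69 ± 0.11. Ccng1 (0.64 ± 0.10), Plk2 (0.50 ± 0.11), Btg2 (0.53 ± 0.12), Eda2r (0.67 ± 0.17) and Ddit4l (0.92 ± 0.16) were also called. Some well-known targets were not: Phlda3 was at 155, 189 and 154 CPM at 2 Gy and 179, 194 and 163 CPM at 7 Gy (adjusted p = 0.557, edgeR), and Fas at 5.93, 3.05 and 5.11 and 7.52, 7.45 and 9.05 CPM (adjusted p = 0.173, edgeR). The RNA of Trp53 itself, whose protein is mainly regulated after translation, was at 58.1, 78.2 and 49.8 CPM at 2 Gy and 79.5, 87.5 and 52.2 CPM at 7 Gy, and the groups overlapped. Without the block 7 members of the list were called, 4 without mTG11, and 8 to 13 where a single library was dropped.

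Of the CDK inhibitors and D cyclins, 3 of 12 were higher at 7 Gy and 0 lower, against 1.62% and 1.53% of all genes. There were 1 to 2 calls where a single library was dropped. Beside Cdkn1a these were Cdkn2b, which encodes the inhibitor p15, at 83, 73.9 and 78.2 CPM at 2 Gy and 103, 98.2 and 97.1 CPM at 7 Gy, and Ccnd1, which encodes cyclin D1, at 827, 913 and 870.2 and 1220.1, 1181 and 989 CPM. Cdkn2a, a marker of senescent cells, was at 30.1, 62.5 and 36.2 CPM at 2 Gy and 43.1, 58.1 and 35.7 CPM at 7 Gy, with mTG12 highest at both doses and the groups overlapping (adjusted p = 0.789, edgeR).

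**Figure D3:**
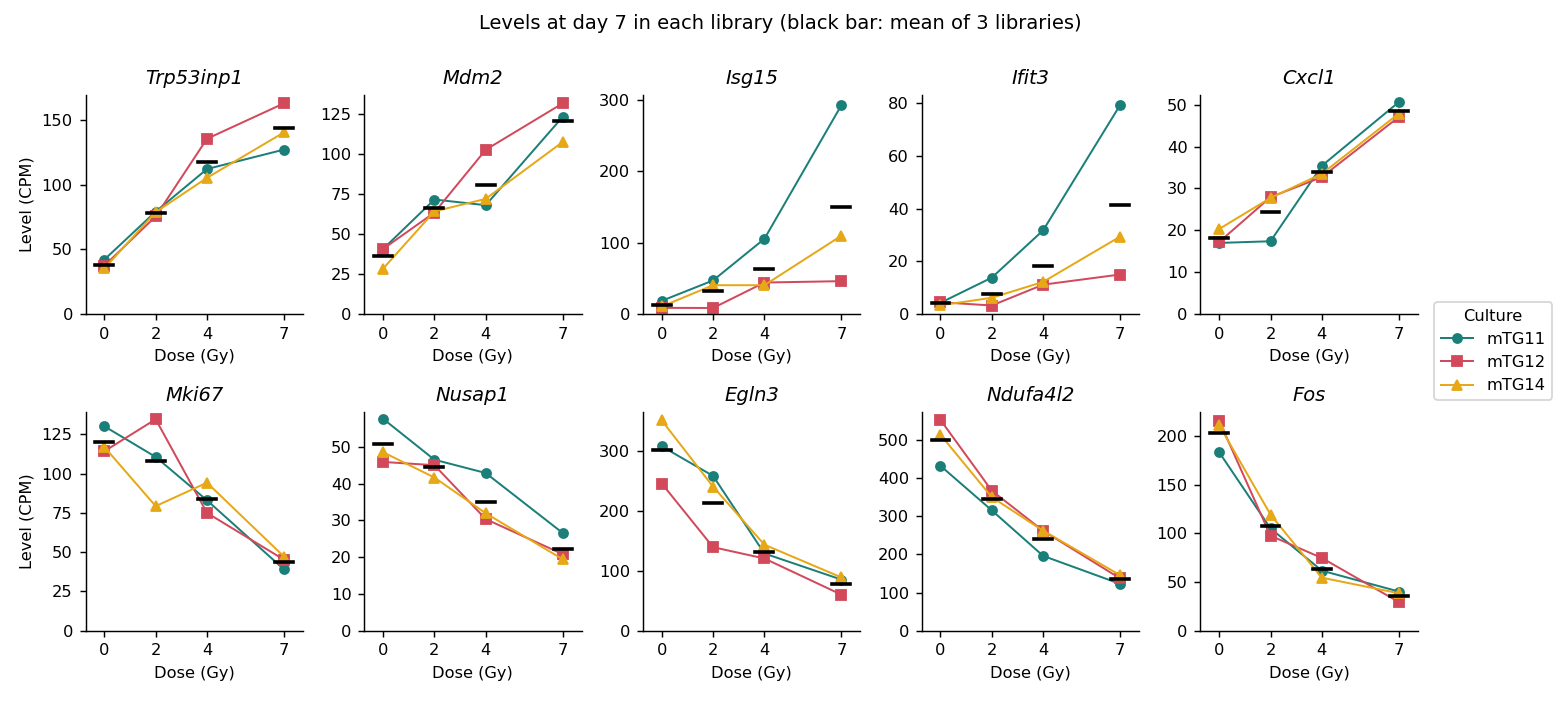
Levels in CPM (y axis) of 10 genes in each library of day 7 against dose in Gy (x axis), with lines joining the libraries of 1 culture and a black bar at the mean of 3 libraries. Trp53inp1 and Mdm2 are higher at 7 Gy than at 2 Gy in all 3 cultures, Isg15 and Ifit3 reach their highest levels in mTG11 at 7 Gy, and Mki67, Nusap1, Egln3, Ndufa4l2 and Fos lie lowest at 7 Gy.

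Genes of mitosis fell at 7 Gy. Of 47 members tested 29 were lower than at 2 Gy and 0 were higher, with a median of -0.76. Here the median changed most at the upper doses: it was -0.02 from 0 to 2 Gy, -0.22 from 2 to 4 Gy and -0.51 from 4 to 7 Gy. The cultures differed at the lower doses. The summed level of the list was 1872, 1580 and 1565 CPM at 0 Gy and 1571, 1909.6 and 1402 at 2 Gy. It was 1588, 1350 and 1372 CPM at 4 Gy and 970.2, 1013 and 891 at 7 Gy. From 0 to 2 Gy the sum rose in mTG12 and fell in mTG11 and mTG14. Mki67, the proliferation antigen Ki-67, was at 130.1, 114 and 117 CPM at 0 Gy, 111, 135 and 79.3 at 2 Gy, 83, 75 and 94.2 at 4 Gy and 39.1, 45.2 and 47.2 at 7 Gy. Only the 7 Gy libraries stood apart from the other doses (log2 fold change -1.30 ± 0.17, adjusted p = 0.000486, edgeR). Nusap1, a spindle protein gene on chromosome 2 from 119448779 to 119481725 on the plus strand (GRCm39), was at 46.5, 45 and 41.6 CPM at 2 Gy and 26.6, 20.8 and 19.4 CPM at 7 Gy (log2 fold change -0.99 ± 0.12, adjusted p = 0.000369, edgeR).

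The called genes act at several steps of division. Top2a, which untangles chromosomes, was at 178, 205 and 137 CPM at 2 Gy and 101, 94.4 and 89.3 CPM at 7 Gy. Cenpa, the histone of the centromere, went from 29.3, 44.6 and 36.9 to 19.8, 21.1 and 13 CPM. Ccnb1, the cyclin of mitotic entry, went from 38.5, 34.8 and 22.6 to 19.2, 22.4 and 15 CPM, and its kinase Cdk1 from 38.8, 45.1 and 27.4 to 20.2, 25.2 and 20.6 CPM (log2 fold changes -0.76 ± 0.17 and -0.75 ± 0.16). In each of these 4 genes the groups did not overlap. Cdc20, which activates the ligase that ends mitosis, differed by -0.76 ± 0.12, Ccna2 by -1.02 ± 0.16 and the survivin gene Birc5 by -0.78 ± 0.13. Hmgb2, a chromatin protein of dividing cells that is on the senescence list because it is lost there, went from 209.9, 212 and 187 CPM at 2 Gy to 113, 106 and 109.6 CPM at 7 Gy (log2 fold change -0.88 ± 0.09, adjusted p = 0.000154, edgeR). Without the block 13 mitosis genes were called, and fits that left out 1 library called 10 to 25.

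Fewer genes of DNA replication were called. Of 40 tested 8 were lower and 0 higher, with a median of -0.52. Refits that dropped a single library called 2 to 8, DESeq2 called 4, and 2 were called without the block. Mcm3, a subunit of the replicative helicase, was at 78, 79.2 and 52.2 CPM at 2 Gy and 46.9, 40.3 and 33.7 CPM at 7 Gy (log2 fold change -0.79 ± 0.12, adjusted p = 0.00161, edgeR), and Lig1, which joins the fragments of the lagging strand, at 93.1, 112 and 79.6 and 53.4, 60.9 and 50.6 CPM. Pcna, the sliding clamp, which p53 also raises, was at 54, 61.1 and 50.2 CPM at 2 Gy and 44.7, 38.9 and 39.4 CPM at 7 Gy and missed the threshold (adjusted p = 0.0814, edgeR). Of 34 genes of DNA damage signalling and repair, 2 were lower and 0 higher, against 1.53% and 1.62% of all genes. The called genes were Brca2, of homologous recombination, from 14.2, 10.9 and 12.4 to 7.27, 4.11 and 4.79 CPM, and H2ax, from 33.8, 38.9 and 38.2 to 21.9, 27.6 and 23 CPM. Of 16 histone genes 3 were lower (H1f0, H2az1 and H2ax) and 1 was higher, H2bc4, from 54.3, 65.7 and 56.4 to 96.5, 93.4 and 81.2 CPM. H1f0 and H2az1 are not replication dependent histones, although the list bears that name, and H2bc4 counts were fractional.

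Many promoters of mitosis genes hold the cell cycle homology region, TTTGAA, which cell cycle complexes bind. It was found on either strand in 28 of 40 mitosis genes with a window (70%) and in 20.2% of 27025 genes. Stretches of 2 of them are shown because their RNA fell, with the element in capitals, Cdk1 at chr10:69352943-69353062 and Kif2c at chr4:117178773-117178892, both on the minus strand of GRCm38.p6. In Kif2c the element is on the other strand and reads TTCAAA. Kif2c, a kinesin that removes tubulin from spindle fibres, was at 11.3, 15.7 and 11.3 CPM at 2 Gy and 5.26, 8.22 and 5.06 CPM at 7 Gy.
Cdk1: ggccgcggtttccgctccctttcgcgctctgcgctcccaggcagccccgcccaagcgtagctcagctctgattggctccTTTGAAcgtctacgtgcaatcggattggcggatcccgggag
Kif2c: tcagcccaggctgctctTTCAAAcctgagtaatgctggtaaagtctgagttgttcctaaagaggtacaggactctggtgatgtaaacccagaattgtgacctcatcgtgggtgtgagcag

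Genes of glycolysis and of the response to low oxygen were lower at 7 Gy. Of 27 members tested 17 were lower at 7 Gy and 0 higher, all 27 had negative values, and the median was -0.52. The medians of the steps were -0.17 from 0 to 2 Gy, -0.20 from 2 to 4 Gy and -0.27 from 4 to 7 Gy. Without the block 14 members were called, and refits that dropped a single library called 12 to 15. Egln3, the oxygen-sensing prolyl hydroxylase Phd3 and a target of the hypoxia factor, was at 308, 246 and 351 CPM at 0 Gy, 259, 139.6 and 241 at 2 Gy, 129, 121 and 144 at 4 Gy and 85.5, 60.4 and 89.1 at 7 Gy. The 7 Gy libraries were the lowest in each culture (log2 fold change -1.40 ± 0.12, adjusted p = 1.36e-05, edgeR). Ndufa4l2, a hypoxia-induced mitochondrial gene outside the list on chromosome 10 from 127350818 to 127353038 on the plus strand (GRCm39), had the smallest p of all genes tested. It was at 432, 552 and 513 CPM at 0 Gy, 315, 367 and 350.0 at 2 Gy, 196, 262 and 262 at 4 Gy and 123, 137 and 146 at 7 Gy (log2 fold change -1.33 ± 0.09, adjusted p = 1.03e-06, edgeR).

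Of the other targets of the hypoxia factor, Bnip3, a gene of mitochondrial turnover, was at 89.9, 79.9 and 105 CPM at 2 Gy and 36.3, 31.2 and 45.3 CPM at 7 Gy. Ero1a, an oxidase that forms disulfide bonds, was at 231, 159 and 283 CPM at 2 Gy and 88.6, 78.1 and 77.4 CPM at 7 Gy. Car9, carbonic anhydrase 9, went from 11.5, 10.9 and 19.4 to 3.76, 4.63 and 2.13 CPM, the widest difference of the list (log2 fold change -1.92 ± 0.29). These 3 genes had no overlap between the doses. Of the transporters, the glucose carrier Slc2a1 differed by -0.66 ± 0.09 and the lactate carrier Slc16a3 by -0.94 ± 0.12. Of the enzymes of glycolysis, Ldha went from 1314, 1514 and 1315 to 1036, 1116 and 967 CPM (log2 fold change -0.39 ± 0.08), Pfkp differed by -0.64 ± 0.10, Aldoa by -0.43 ± 0.07, Tpi1 by -0.41 ± 0.08 and Gapdh by -0.41 ± 0.09. Pgk1 (-0.71 ± 0.08) shares reads with several processed copies and Gapdh counts were fractional too, so their levels are uncertain. Of 6 regulators looked up after the result was seen, Hif1a was at 109.9, 152 and 127 CPM at 2 Gy and 108, 140.0 and 129 CPM at 7 Gy (adjusted p = 0.971, edgeR), whereas Epas1, which encodes another hypoxia factor, differed by -0.40 ± 0.10 on the log2 scale (adjusted p = 0.0451, edgeR) and Egln1 by -0.79 ± 0.10 (adjusted p = 0.000486, edgeR). DESeq2 called 1 of the 6.

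The core of the hypoxia response element, ACGTG, was found on either strand in 19 of 26 members with a window (73.1%) and in 21.8% of 27025 genes. The stretch of Bnip3, whose element begins 108 bases before the start, is at chr7:138909507-138909626 on the minus strand of GRCm38.p6, with capitals over 2 overlapping matches, 1 on each strand. The 3 motifs can share letters at their ends, and each stretch marks only the motif named for it. A match is a description of letters and not of binding.
Bnip3: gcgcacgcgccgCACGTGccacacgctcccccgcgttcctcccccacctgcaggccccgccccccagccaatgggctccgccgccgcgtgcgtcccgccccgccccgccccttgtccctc

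Of 27 immediate early genes 3 were lower and 0 higher, against 1.53% and 1.62% of all genes, and the median was 0.08. Fos, which pairs with Jun in the factor AP-1, fell at each step of dose. It was at 183, 216 and 211 CPM at 0 Gy, 105, 97.7 and 119 at 2 Gy, 61.8, 74.8 and 54.6 at 4 Gy and 40.4, 29.5 and 38.6 at 7 Gy (log2 fold change -1.54 ± 0.14, adjusted p = 3.99e-05, edgeR). Fosb was at 21.4, 15.9 and 14.6 CPM at 2 Gy and 4.76, 6.17 and 4.79 CPM at 7 Gy, and Egr1 at 160.2, 163 and 154 and 115, 82 and 129.6 CPM. Other subunits of the same factor family differed in sign: Jun was at 236, 175 and 248 CPM at 2 Gy and 174, 151 and 167 CPM at 7 Gy (log2 fold change -0.39 ± 0.13, adjusted p = 0.116, edgeR) and Fosl1 at 7.51, 10.0 and 10.2 and 11, 15.9 and 10.1 CPM (0.42 ± 0.22, adjusted p = 0.39, edgeR).

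Genes of cholesterol and fatty acid synthesis had 10 of 29 members lower and 0 higher, with a median of -0.33. Dropping a single library left 4 to 9 calls, dropping a culture 4 or 5, and 5 were made without the block. Scd1, which puts the double bond into fatty acids, was at 136, 128 and 134 CPM at 0 Gy, 103, 103 and 97.7 at 2 Gy, 93.9, 80.5 and 71 at 4 Gy and 47.4, 50.2 and 48.2 at 7 Gy. The cultures lay close together at each dose (log2 fold change -1.04 ± 0.10, adjusted p = 5.43e-05, edgeR). Elovl6, which lengthens fatty acids, was at 93, 87.2 and 81.2 CPM at 2 Gy and 57.5, 52 and 51.6 CPM at 7 Gy. In the sterol branch Hmgcs1 differed by -0.41 ± 0.10, Mvd by -0.78 ± 0.17 and Insig1 by -0.67 ± 0.17. Of the factors that drive these genes (Srebf1, which is also a member of the list, Srebf2 and Scap) edgeR called 0 of 3, with 1 at an unadjusted p under 0.05, and DESeq2 called 0. Over all genes, 3043 of 19346 had an unadjusted p under 0.05 (edgeR).

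Amino acid genes under the stress factor Atf4 had 7 of 29 members lower and 1 higher, and 4 to 6 lower where a single library was dropped. Asns, asparagine synthetase, was at 65.6, 63.4 and 62.4 CPM at 2 Gy and 40.4, 42.4 and 38.3 CPM at 7 Gy (log2 fold change -0.64 ± 0.10, adjusted p = 0.00149, edgeR). The serine pathway genes Psat1 and Shmt2 differed by -0.84 ± 0.14 and -0.65 ± 0.12, and the amino acid carrier gene Slc7a5 by -0.75 ± 0.14. The member that rose was Ddit4, an inhibitor of the growth kinase mTORC1 that p53 also raises, from 107, 123 and 86.7 to 143, 163 and 140.0 CPM. Of 34 glutathione and detoxification genes 2 were lower (Gstm1, from 147, 85.8 and 103 to 62.7, 46.8 and 63.1 CPM, and Gstm2) and 2 were higher (Aldh1a1 and Gclc, the latter the limiting enzyme of glutathione synthesis). Over all genes 1.53% were lower and 1.62% higher.

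Of 29 chemokine and cytokine genes 9 were higher and 0 lower, with a median of 0.41. Dropping a single library left 5 to 9 calls, dropping mTG11 left 2, and 2 were made without the block. Cxcl1, which attracts neutrophils, was at 17, 17.2 and 20.3 CPM at 0 Gy, 17.4, 27.9 and 27.8 at 2 Gy, 35.4, 32.7 and 33.5 at 4 Gy and 50.6, 47.1 and 47.9 at 7 Gy. Each 7 Gy library lay above every library of a lower dose (log2 fold change 0.99 ± 0.15, adjusted p = 0.00126, edgeR). Cxcl2, its relative, went from 15, 12.3 and 12.8 CPM at 2 Gy to 33.6, 30.8 and 20.0 CPM at 7 Gy. Ccl2, which attracts monocytes, was at 13, 33.1 and 18.3 and 31.8, 51.6 and 45 CPM, higher within each culture and overlapping between groups. Cxcl10, which interferon raises and which is on both lists, was at 2.37, 3.48 and 5.11 CPM at 2 Gy and 25.1, 6.42 and 9.31 CPM at 7 Gy. Tslp, an alarm cytokine of epithelia, was at 22.5, 20.9 and 16.4 CPM at 2 Gy and 43.9, 49.8 and 20.2 CPM at 7 Gy.

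The senescence list, which shares members with those above, had 7 of 33 members higher (Cxcl1, Cxcl2, Areg, Cdkn1a, Ccl2, Mmp13 and Plau) and 3 lower, Hmgb2 and Hmgb1 among them. Dropping a single library left 5 to 7 higher and 1 lower. In these 6 refits Plau and Hmgb1 passed in 0 and Mmp13 in 1. Over all genes 1.62% were higher and 1.53% lower. Areg, a ligand of the EGF receptor, was at 119, 129.8 and 127 CPM at 2 Gy and 182, 178 and 199.7 CPM at 7 Gy (log2 fold change 0.60 ± 0.09, adjusted p = 0.00149, edgeR). Gdf15, a stress cytokine, was at 4.75, 1.09 and 3.65 CPM at 2 Gy and 4.51, 4.88 and 2.66 CPM at 7 Gy, with overlap. Outside these lists, Jag1, a Notch ligand, went from 182, 268 and 169 to 343, 373 and 305 CPM (log2 fold change 0.77 ± 0.10, adjusted p = 0.000499, edgeR), the only call among 18 Notch genes.

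Genes of the cornified envelope, the shell of dead squamous cells, moved both ways. Of 32 tested 4 were higher and 8 lower, against 1.62% and 1.53% of all genes. Those that rose were Ivl, which encodes involucrin, an early part of the envelope, from 56.9, 56 and 56.6 CPM at 2 Gy to 107, 81.2 and 81.7 CPM at 7 Gy (log2 fold change 0.67 ± 0.11, adjusted p = 0.00177, edgeR) and Sprr2a1, Sprr2a2 and Sprr2a3, small proline-rich proteins. Sprr2a2 was at 11835, 10681 and 13719 CPM at 2 Gy and 14110.1, 14758 and 16162 CPM at 7 Gy, but the 3 copies share reads and count as 1 signal. Those that fell included genes of the outermost layers. Flg, which encodes filaggrin, was at 8.3, 1.96 and 9.86 CPM at 2 Gy and 0.501, 1.03 and 0.798 CPM at 7 Gy and summed to 9 counts over the 7 Gy libraries, so its fold change is uncertain. Crnn, cornulin, was at 59.7, 10.5 and 37.1 and 16, 7.71 and 18.4 CPM, and Lor at 54.2, 39 and 29.2 and 7.77, 17.2 and 20.0 CPM. Asprv1, a protease that cuts filaggrin, went from 36.8, 27.4 and 40.2 to 6.27, 12.1 and 23.9 CPM, and Lce3b, Lce3e and Lce3f, which also share reads, fell by 1.09 to 1.33 on the log2 scale. Krtdap completed the 8. Without the block 0 members were called in either direction, and refits that dropped 1 culture called 0 to 1 higher and 2 to 5 lower.

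Few members of the related epithelial lists were called. Over all genes 1.62% were called higher and 1.53% lower, so 1 or 2 calls alone do not describe a list. Krt6a, a keratin of stressed and healing epithelium, was at 3749, 4423 and 3600.1 CPM at 2 Gy and 4819.7, 5185 and 5675 CPM at 7 Gy (log2 fold change 0.43 ± 0.08, adjusted p = 0.0095, edgeR). With Krt15 it made 2 of 15 basal and stress keratin genes called higher, while Krt5 at 4672, 5597 and 5147 CPM and Krt14 at 4259, 5508 and 4949 CPM at 7 Gy overlapped with their 2 Gy levels. Yet 13 of the 15 had positive values, with a median of 0.30, and 11 had an unadjusted p under 0.05 (edgeR). Dropping a single library left 0 to 7 calls in that list. Krt20 was the only call of 13 simple keratin genes, from 115, 75.4 and 121 to 204, 128 and 173 CPM. Of 19 kallikreins and proteases, Klk9 and Klk14 were lower and the membrane protease gene St14 was higher. In 6 lists (desmosome, tight and adherens junction, epithelial transcription factors, multiciliated, endothelial and erythroid cells) edgeR called 0 of 82 members, with 12 at an unadjusted p under 0.05, and DESeq2 called 0. Over all genes, 3043 of 19346 had an unadjusted p under 0.05 (edgeR), a share like that of the 82. Trp63, the master factor of stratified epithelium, was at 94.9, 98.4 and 123 CPM at 2 Gy and 80.7, 82.7 and 87.9 CPM at 7 Gy and did not pass (adjusted p = 0.106, edgeR). Of 13 mitochondrially encoded genes 1 was higher, of 27 TGF-β genes 1 was higher (Cd44) and 1 lower, and of 26 secretory defence genes 1 fell (Defb1). Of 50 ribosomal protein genes 2 were called lower (Rpl3 and Rps6), and 0 to 1 where a single library was dropped. Yet 49 of the 50 had negative values, with a small median of -0.16, and 26 had an unadjusted p under 0.05 (edgeR).

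Markers of other cell types moved beside these results in a few genes. Over all genes 1.62% were called higher and 1.53% lower, so a single call in a list describes that gene and not the list. Of 19 fibroblast and matrix genes 1 was called, Dcn, at 3.16, 6.32 and 15 CPM at 2 Gy and 9.02, 13.9 and 37.5 CPM at 7 Gy, and the summed level of the list was 347, 572 and 596 CPM at 2 Gy and 463, 638 and 546 CPM at 7 Gy. Col1a1 was at 7.91, 30.1 and 28.8 and 18, 42.1 and 20.8 CPM. Of 9 white blood cell genes 1 was called, the MHC class II gene H2-Ab1, lower from 6.33, 4.79 and 9.86 to 2.26, 2.06 and 1.06 CPM, whereas 6 of the 9 had positive values and the list median was 0.88. The summed level was 153, 74.8 and 112 CPM at 2 Gy and 148, 111 and 114 CPM at 7 Gy. Its defining members were at or near 0, Cd3e with no counts, and Ptprc and Adgre1 under 1 CPM in each library. Of 8 fat and muscle genes 3 were called higher (Acta1, Tnnt3 and Des), but dropping a single library left 0 to 1 calls, DESeq2 made 1 and the fit without the block 0. The summed level was 53.4, 144 and 108 CPM at 2 Gy and 72.2, 174 and 175 CPM at 7 Gy, with Adipoq and Plin1 at 0. Calcb, a calcitonin-related gene, was the call among 5 genes of C cells and parathyroid, from 34.8, 40.3 and 39.4 to 86.7, 87.6 and 76.6 CPM, and the list summed to 36.4, 42 and 40.5 and 88.5, 90.4 and 77.2 CPM. Calca, Chga and Pth, which define those cells, were at or under about 1 CPM. Of 12 thyroid genes tested 1 was called, Cit, a kinase of cytokinesis that was entered there by mistake, and the list summed to 159, 158 and 152 CPM at 2 Gy and 136, 149 and 166 CPM at 7 Gy. The part of these cells in the results above was not tested.

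With the 4 Gy libraries added, the slope over 2, 4 and 7 Gy was tested in 18572 genes, and 748 were called (4.03%), 372 rising (2%) and 376 falling (2.02%) with dose. These libraries include the 6 compared above, so the test is not independent. It called 37 of 43 interferon genes, 15 of 37 p53 targets and 10 chemokine genes as rising, and 30 of 47 mitosis genes, 18 of 27 glycolysis and hypoxia genes and 11 lipid genes as falling. None of these lists had a call against that direction.

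**Figure D4:**
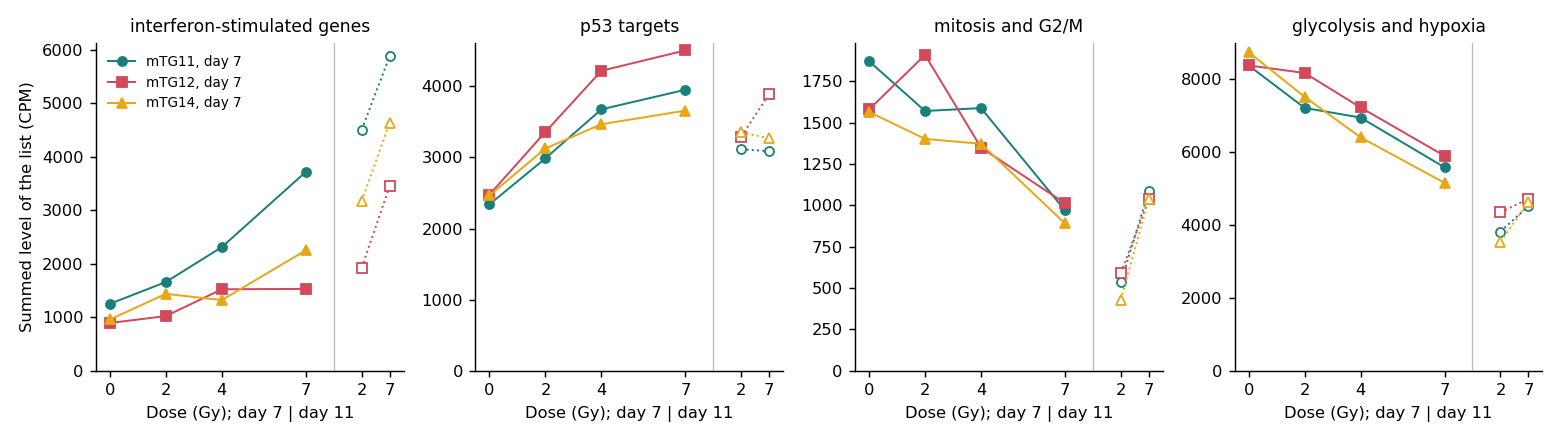
Summed level in CPM (y axis) of 4 gene lists in each library against dose in Gy (x axis), with day 7 left and day 11 right of the grey line and 1 symbol per culture, open for day 11. At day 7 the interferon list is highest in mTG11 at 7 Gy, and at day 11 the mitosis list is higher at 7 Gy than at 2 Gy in all 3 cultures.

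Whether the difference between 7 and 2 Gy was itself different at day 11, 4 days later, was tested in 24 libraries. Of 21928 genes 598 had an adjusted p under 0.05 (2.73%), 476 with a more positive difference at day 11 (2.17%) and 122 with a more negative one (0.556%). The median of the mitosis genes changed sign. Of 47 tested 42 had a more positive difference at day 11, 46 were higher at 7 Gy than at 2 Gy at that day, and the median log2 fold change of -0.76 at day 7 became 1.11. Mki67 was at 22.1, 47.2 and 22 CPM at 2 Gy and 83.9, 77.1 and 65.8 CPM at 7 Gy at day 11, higher at 7 Gy in each culture (difference between days 2.65 ± 0.29, adjusted p = 3.57e-06, edgeR). Top2a was at 56.2, 59.9 and 44.5 CPM at 2 Gy and 109, 107 and 110.1 CPM at 7 Gy at day 11 (1.91 ± 0.18, adjusted p = 4.41e-07, edgeR). Comparing days within a dose, the summed mitosis level at 7 Gy was 970.2, 1013 and 891 CPM at day 7 and 1087, 1037 and 1041 CPM at day 11, whereas at 2 Gy it was 1571, 1909.6 and 1402 and 537, 593 and 429 CPM.

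The medians of the replication and lipid genes were also negative at day 7 and positive at day 11. Of 40 replication genes 26 had a more positive difference at day 11, where their median was 0.65, and of 29 lipid genes 21, with a median of 0.65. Scd1 was at 26.7, 41.9 and 37 CPM at 2 Gy and 54.9, 53.5 and 66.2 CPM at 7 Gy at day 11. Of 27 glycolysis and hypoxia genes 19 had a more positive difference, and their median at day 11 was 0.17. Egln3, for example, was at 136, 175 and 89.5 CPM at 2 Gy and 189, 181 and 176 CPM at 7 Gy at day 11, no longer lower at the higher dose.

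The p53 and interferon lists kept a positive median that was smaller. The p53 median was 0.12 at day 11, with 4 members called more negative than at day 7 and 3 more positive. Cdkn1a was at 598, 515 and 627 CPM at 2 Gy and 447, 541 and 492 CPM at 7 Gy at day 11 (difference between days -0.78 ± 0.14, adjusted p = 0.00149, edgeR). The interferon median was 0.79, all 43 members stayed positive, and 9 had a more negative difference than at day 7. Ifit3 was at 96.6, 21.9 and 68.6 CPM at 2 Gy and 129, 49.3 and 88.8 CPM at 7 Gy at day 11. For Ifit3 and for the summed list, the 2 Gy libraries of day 11 lay above the 7 Gy libraries of day 7 in each culture. The list summed to 4508, 1927 and 3172 CPM at 2 Gy and 5884, 3456 and 4637 CPM at 7 Gy at day 11. B2m, for which no difference between days was called (adjusted p = 0.21, edgeR), was at 726, 264 and 459 CPM at 2 Gy and 1595, 792 and 1045 CPM at 7 Gy at day 11.

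**Figure D5:**
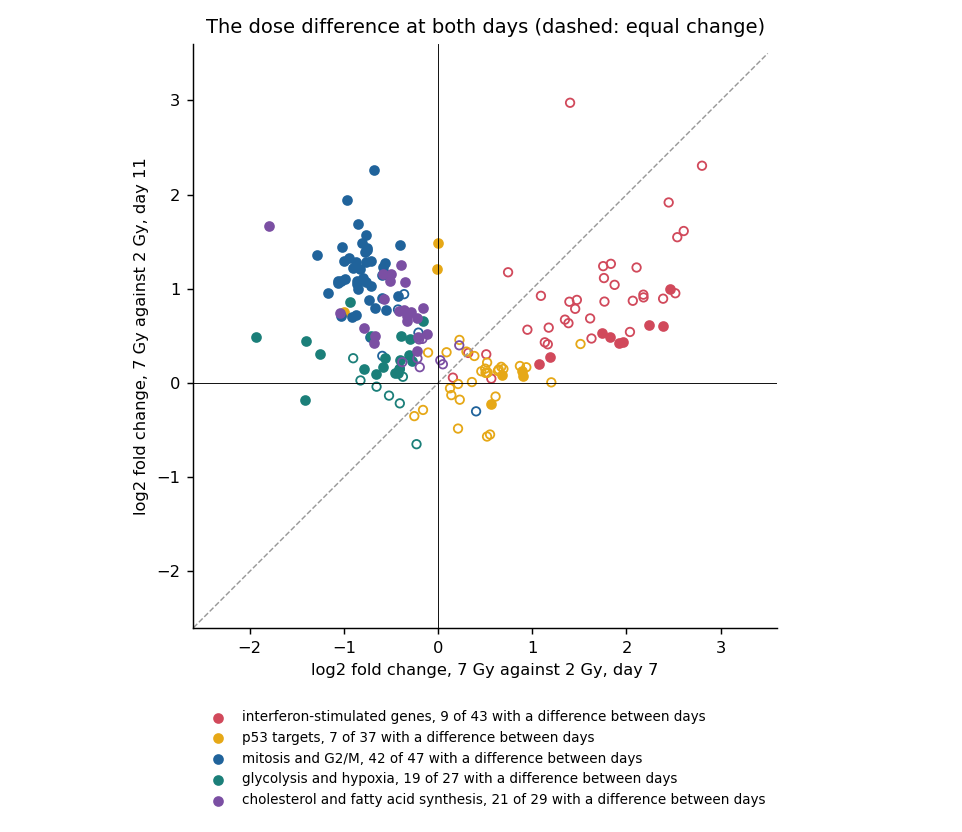
Log2 fold change of 7 Gy against 2 Gy at day 11 (y axis) against that at day 7 (x axis) for members of 5 gene lists, each point 1 gene, filled where the difference between the days had an adjusted p under 0.05, with equal change on the dashed line. The mitosis genes lie at the upper left, lower at 7 Gy at day 7 and higher at day 11, and the interferon-stimulated genes lie at the right, mostly below the dashed line.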

How the data were processed

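RNA of mTGOs was sequenced from the 3′ end with Smart3SEQ. The authors deposited estimated counts per gene. Of the nonzero values, 56.3% are whole and the rest are fractions, as reads shared between genes would give. Their reads were aligned to GRCm39, and STAR and edgeR are named in the submitters' processing notes. The counting tool, its annotation and its use of strand and molecular identifiers are not given in the sources used here, so close copies and overlapping genes are uncertain.

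Counts were rounded and tested with edgeR 4.0.16 in R 4.3.3 (TMM, quasi-likelihood F-test, at least 10 counts summed over the fitted libraries, Benjamini-Hochberg, adjusted p under 0.05). The 12 libraries of day 7 were fitted together with the culture as a replicate block, the slope in the 9 irradiated libraries, and the difference between days in 24 libraries of days 7 and 11. Errors of log2 fold changes are standard errors from the F statistic. DESeq2 1.42.0 was an alternative, and the edgeR script was tested on simulated data. Columns carry culture names, and deviations from the group means over 13025 genes correlated at 0.287 to 0.437 between the 2 Gy and 7 Gy libraries of the same culture and at -0.303 to 0.0124 between cultures, so the names were taken to pair the libraries.

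The genes named were the 12 largest rises and 12 largest falls of at least 10 CPM with the same direction in all cultures, the 5 most positive and 5 most negative called differences between days at the same minimum level, and members of 35 gene lists, of whose 865 entries 806 were tested. Ndufa4l2, the interferon ligands, receptors and the 5 sensing genes and the hypoxia and sterol factors were named for their role after values were seen. Of these Srebf1 was also a list member. The comparison and the lists were chosen with earlier results of these data known. Promoters came from RefSeq (GRCm38.p6). Alternatives were the block, the libraries fitted, the tool, the scaling, the filter, rounding, depth, abundant RNA and leaving out libraries or cultures. Values of some genes that the rule or the lists name are not reported here.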

Additional observations from a re-analysis of the deposited data

Results flagged for a closer look

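The difference between 7 Gy and 2 Gy was itself different at day 11 in 598 genes (edgeR interaction test, adjusted p under 0.05), more positive at day 11 in 476 and more negative in 122. Both days hold 3 libraries a dose from the same 3 cultures.

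Among the 447 of these genes with a mean of at least 10 CPM over the 2 Gy and 7 Gy libraries of both days, genes of cornification had the 5 most positive values. Lce3e (9.08 on the log2 scale), Lce3b (7.60), Lce3f (4.70) and Lce3c (3.95) lie in a cluster and share reads. Over the 2 Gy libraries of day 11, Lce3e and Lce3b each summed to 0.2 counts, against 100.0 and 42.8 at 7 Gy, so their fitted values depend on the prior count and are no bound. Asprv1 (4.26) was at 0.448, 2.23 and 1.07 CPM at 2 Gy and 5.07, 13.7 and 7.37 CPM at 7 Gy at day 11, against 36.8, 27.4 and 40.2 and 6.27, 12.1 and 23.9 CPM at day 7.

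The 5 most negative among them were those of Dcn (-2.20), a matrix proteoglycan, the matrix protease genes Mmp10 (-2.14) and Mmp13 (-1.86), the small nuclear RNA Rn7sk (-1.99) and Ifit3 (-1.79). Mmp10 was at 13.4, 20.7 and 21.9 CPM at 2 Gy and 23.1, 23.6 and 32.7 CPM at 7 Gy at day 7, and at 25.3, 48.7 and 69.8 and 9.96, 25.1 and 12.6 CPM at day 11. Rn7sk was at 89.3, 35.9 and 64.8 and 129, 77.4 and 99 CPM at day 7 and at 203, 112 and 184 and 88.7, 55.8 and 61.7 CPM at day 11, from fractional counts. Dcn was at 8.95, 34.5 and 53.8 CPM at 2 Gy and 5.94, 23.4 and 22.1 CPM at 7 Gy at day 11, lower at the higher dose in each culture, whereas at day 7 it was higher in each.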

How the results depend on the processing

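The sign of the difference between 7 and 2 Gy was checked for 194 genes, the called list members and the genes named by rank. None of these genes changed sign under the alternatives tried. List members that were not called and genes named for their role were not checked, and list medians were not recomputed. The calls between 7 and 2 Gy, 313 higher and 296 lower, held more lower than higher with DESeq2 (217 and 226), without TMM factors (257 and 311) and without the block (53 and 107). Without the replicate block, which ignores the pairing by culture, 160 genes were called between 7 and 2 Gy in place of 609 (33.1% higher in place of 51.4%), 176 for the slope in place of 748, and 353 for the difference between days in place of 598. Without the filter on low counts the numbers were 1151, 1321 and 1046, and with the 0 Gy libraries added the slope called 2303. Leaving out libraries or cultures gave 161 to 394 for the first, 252 to 758 for the slope and 214 to 602 for the difference between days. For the first, leaving out 7 Gy mTG11 gave 248, 7 Gy mTG12 348, 7 Gy mTG14 309, 2 Gy mTG12 373, 2 Gy mTG14 385 and 2 Gy mTG11 394, and leaving out culture mTG11, mTG12 or mTG14 gave 161, 339 and 190. For the slope the low values came without 7 Gy mTG11 (273), 7 Gy mTG14 (313), 7 Gy mTG12 (393), 2 Gy mTG12 (426) or a culture (252, 299 and 309), and for the days without a culture (222, 419 and 214). The cause was not tested, apart from the fewer samples fitted. Over these counts and the single genes recomputed, 3155 values stayed on their side of the threshold or within 1.5 times, 869 calls were lost with the direction unchanged and 179 counts moved by more than 1.5 times. Of the 24 genes named by rank, 21 passed in each refit that dropped a library, 15 without each culture and 9 without the block. With DESeq2 443 genes were called, of which 416 were among the 609. Depth limits low genes, with 3 counts standing for up to 1.19 CPM.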
